A study of Mus musculus with 4 samples.

Results

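Mul1 and 9 further genes of mitochondrial fission, fusion and mitophagy were followed in the stromal vascular fraction, the cells left when adipocytes are removed from fat, split into cells positive and negative for Mmp3, a matrix metalloproteinase. The members were Mul1, Pink1, Mfn1, Mfn2, Opa1, Dnm1l, Fis1, Mff, Bnip3 and Bnip3l, 10 of 35580 annotated genes, and all 10 were among the 14185 genes that passed the filter on low counts. Mul1 was chosen for its difference between these groups, so its values, the fitted fold included, are a description, and nothing is read from its place in any count of calls. The other 9 were chosen by function, with results of these data known.

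Both groups came from subcutaneous adipose tissue of C57BL/6 mice labelled WT, with 2 libraries each, numbered Set 1 and Set 2 in the labels, here replicates 1 and 2. The labels list no treatment or age, and nothing in them ties a library to an animal of its own. The p-values therefore reflect how far these samples lie apart, and that spread may be purely technical. Negative and positive cells were told apart with a reagent known here only by a code, and RNA was purified with a kit for formalin-fixed, paraffin-embedded material and made into stranded libraries after ribosomal RNA was removed. The libraries held 17693755 to 20286221 estimated counts. Mmp3 itself stood at 106 and 131 CPM (counts scaled to library size) in Mmp3-negative replicates 1 and 2 and at 4161 and 3409 CPM in the Mmp3-positive ones.

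Mitochondria fuse and divide continuously. The outer membrane is fused by the mitofusins Mfn1 and Mfn2 and the inner membrane by Opa1, while division is driven by the dynamin-related GTPase encoded by Dnm1l (Drp1), which is recruited by adaptors such as Mff. Damaged or surplus mitochondria are removed by mitophagy, either through the kinase Pink1 and ubiquitin or through receptors such as Bnip3 and Bnip3l (Nix), which bind autophagosomes directly. Mul1 is an outer membrane ligase with a RING domain that attaches ubiquitin or SUMO to proteins including mitofusins and Drp1. In adipose tissue mitophagy is known for removing mitochondria when beige adipocytes return to a white state.

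The annotation lists 3 protein-coding Mul1 transcripts, and the estimated counts were divided among them differently in the 2 groups. Their separating coding sequences are shown because the result below turns on them. They were read from the GENCODE M21 transcripts on GRCm38, plus strand of chromosome 4. Mul1-201 and Mul1-203 begin their coding sequence in exon 1. Mul1-202 also contains exon 1 with that start codon, but its 203 bases there are annotated as untranslated. Its coding sequence is annotated to begin in an additional exon of 220 bases, of which 105 are coding. In the first pair of lines capitals mark the start codon. In the third they mark the bases after the exon end of Mul1-201, through which Mul1-203 reads to a stop codon.
Mul1-201, exon 1, chr4:138434760-138434879: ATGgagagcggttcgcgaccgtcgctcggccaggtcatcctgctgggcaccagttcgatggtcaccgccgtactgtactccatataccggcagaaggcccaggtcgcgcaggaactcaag
Mul1-202, exon 2, chr4:138436295-138436399: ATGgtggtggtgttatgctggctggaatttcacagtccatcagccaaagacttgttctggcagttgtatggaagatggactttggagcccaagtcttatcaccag
Mul1-203, exon 3, chr4:138438242-138438405: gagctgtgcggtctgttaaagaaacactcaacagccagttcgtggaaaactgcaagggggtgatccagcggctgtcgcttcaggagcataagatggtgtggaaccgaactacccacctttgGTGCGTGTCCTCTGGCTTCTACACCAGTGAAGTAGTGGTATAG

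From these starts Mul1-201 has 352 codons, Mul1-202 has 347 and Mul1-203 has 123, without the stop codon. Mul1-201 and Mul1-202 share the later coding exons, apart from a shift of 1 base at their last junction, and Mul1-203 lacks the coding part of the last exon, from which the carboxy-terminal RING end of the protein is read. Of the 31-base stretches in each transcript, 248 occurred in Mul1-202 alone among Mul1 transcripts, 74 in Mul1-203 alone and 9 in Mul1-201 alone. None of these stretches (0 in each of the 3 transcripts) was found in a transcript of another gene. Mul1-202 therefore had far more sequence of its own than Mul1-201. The 9 stretches leave out the junction of exons 1 and 2, which Mul1-201 shares with Mul1-203 but not with Mul1-202. They therefore do not measure how well Mul1-201 and Mul1-202 can be told apart.

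Mul1 (ENSMUSG00000041241, GRCm38 chromosome 4 from 138434671 to 138442265) was about 7-fold more abundant in the Mmp3-positive libraries. It stood at 6.31 and 6.86 CPM in Mmp3-negative replicates 1 and 2 and at 40.9 and 53.7 CPM in Mmp3-positive replicates 1 and 2. The lowest Mmp3-positive library lay far above the highest Mmp3-negative one, and replicates of a group lay close together. Group means were 6.59 ± 0.389 and 47.3 ± 8.99 CPM (SD, n = 2), and the fitted fold was 7.18, or 2.84 on the log2 scale with a standard error of 0.53. Estimated counts behind these levels were 117 and 119 against 778 and 1054. Leaving out any 1 of the libraries, the log2 fold change ran from 2.63 to 3.02.

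**Figure D1:**
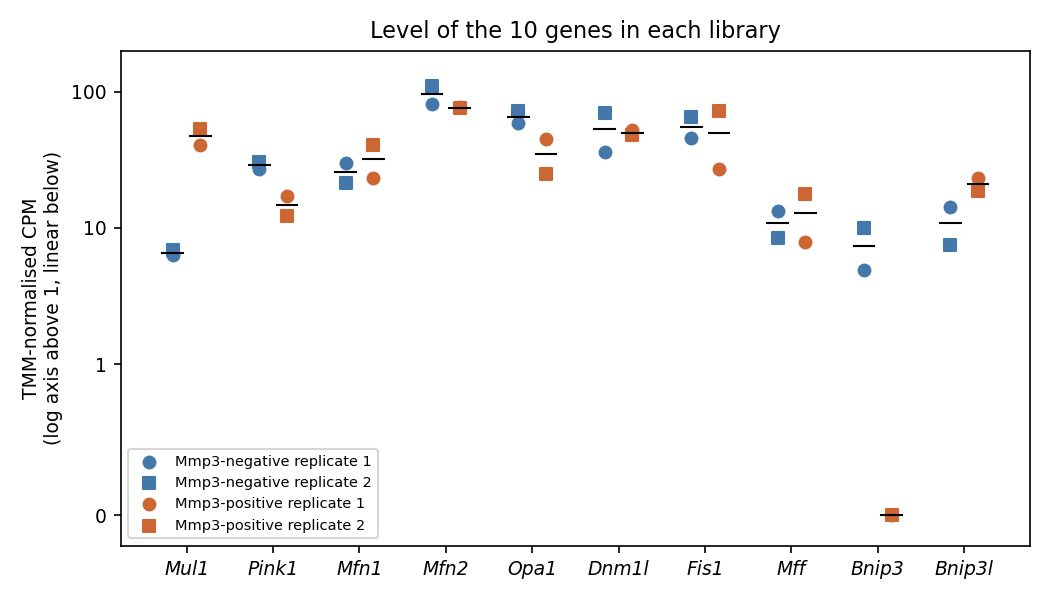
Level of each of the 10 genes in TMM-normalised CPM (vertical axis, log scale above 1 and linear below) in the 4 libraries, with circles for replicate 1, squares for replicate 2 and short bars for group means. Mul1 is the gene whose Mmp3-positive libraries (40.9 and 53.7 CPM) stand above its Mmp3-negative ones (6.31 and 6.86 CPM) by the widest margin, and Bnip3 is at 0 in both Mmp3-positive libraries.

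All estimated Mul1 counts of the Mmp3-negative libraries were assigned to Mul1-201, 117 and 119. In the Mmp3-positive libraries Mul1-201 held 425 and 543 counts and Mul1-202 held 306 and 511. Mul1-203 held 46.9 counts in Mmp3-positive replicate 1 and 0 in the other 3 libraries. Thus Mul1-202, with the alternative coding start, was listed at 0 in both Mmp3-negative libraries and was nearly as abundant as Mul1-201 in Mmp3-positive replicate 2.

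Mul1-202 took 39.3% of Mul1 counts in Mmp3-positive replicate 1 (exact 95% binomial interval 35.9 to 42.9%) and 48.5% in replicate 2 (45.4 to 51.5%). In the Mmp3-negative libraries 0 of 117 and 0 of 119 counts were assigned to Mul1-202. With 3 counts as the limit that a count of 0 allows, that would be a share of up to 2.56% and 2.52%. Intervals and limits alike take every Mul1 count as able to tell the transcripts apart. Only 248 of the 3914 stretches of Mul1-202 were its own, so the zeros do not limit its share that tightly. These intervals and limits cover counting error only, since reads without molecular identifiers are not independent molecules and the assignment is itself an estimate. Mul1-201 alone was higher in both Mmp3-positive libraries than in either Mmp3-negative one, so the gene's difference did not rest on Mul1-202 by itself. In TPM, a level per transcript length scaled to the library, the short Mul1-203 weighed more. In Mmp3-positive replicate 1 it made up 43.0% of Mul1 TPM, against 6.02% of the counts, and in replicate 2 it was at 0 on both scales. TPM also differed in scale between the Mmp3-negative libraries. The 117 and 119 counts of Mul1-201 there, at nearly the same length, stood for 1.33 and 2.54 TPM.

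**Figure D2:**
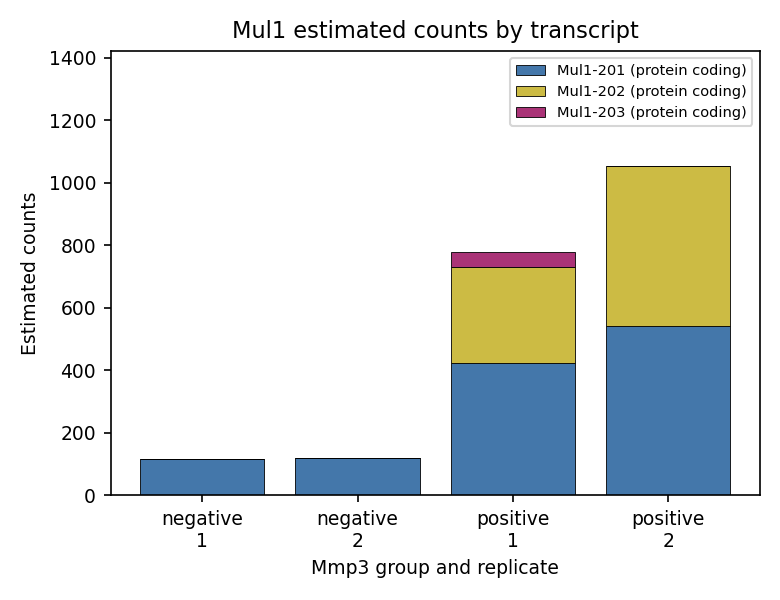
Estimated counts of Mul1 (vertical axis) in each library, stacked by annotated transcript. The Mmp3-negative bars hold Mul1-201 alone, 117 and 119 counts, and the Mmp3-positive bars add Mul1-202 with 306 and 511 counts.

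None of the 10 members passed the threshold among all genes, an adjusted p under 0.05 in edgeR's quasi-likelihood test (0 higher, 0 lower). Over all 14185 genes tested, 0.00705% were called higher and 0.0141% lower. At an unadjusted p under 0.05 there were 2 members, Mul1 and Bnip3, and DESeq2 called the same 2 at an adjusted p under 0.05. The shares over all genes were 8.87% and 9.64%. Nothing is read from these 2 members, since Mul1 was chosen from this contrast and Bnip3 passed the filter through the Mmp3-negative libraries alone. The groups did not overlap in CPM for 2 members on the higher side, Mul1 and Bnip3l, and for 4 on the lower side, Pink1, Mfn2, Opa1 and Bnip3. Of all genes tested, 22.5% did not overlap on the higher and 17.3% on the lower side, 39.8% in either direction, beside 6 of 10 members. Log2 fold changes of 4 members were above 0 and of 6 below, with a median of -0.12 against 0.019 over all genes tested. The median was the same with Bnip3 at its bound.

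Pink1, the kinase that accumulates on damaged mitochondria, stood at 26.9 and 30.6 CPM in the Mmp3-negative and at 17.1 and 12.2 CPM in the Mmp3-positive libraries. The groups did not overlap in CPM, in the direction opposite to Mul1. In TPM, not adjusted for the difference in scale given above, they overlapped, at 9.87 and 26.2 against 12.4 and 7.88. The log2 fold change was -0.98 with a standard error of 0.60 (edgeR adjusted p = 0.831), and it stayed between -1.24 and -0.65 over the 13 alternatives tried. Pink1 lies 108364 bases from Mul1 on the same chromosome, from 138313409 to 138326307 on the minus strand.

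Bnip3, an outer membrane mitophagy receptor of the BH3-only family and a known target of hypoxia-inducible factors, was listed at 0 counts in both Mmp3-positive libraries. It stood at 4.91 and 9.92 CPM in the Mmp3-negative libraries, from 91 and 172 estimated counts. Against a floor of 3 counts per library this is at least 47.7-fold lower on counting error alone (edgeR adjusted p = 0.480). Without Mmp3-negative replicate 2 the bound is 31.6-fold. Spread between replicates is not covered by it, and counts of 0 occurred there too. Near Mul1, Cda had 104 and 0 counts and Sh2d5 had 193 and 0 in Mmp3-negative replicates 1 and 2. The Mmp3-negative counts of Bnip3 lay on different transcripts. All 91 counts of replicate 1 were assigned to the protein-coding Bnip3-203, whereas 170 of the counts of replicate 2 were assigned to Bnip3-205, a transcript annotated as a retained intron, and only 2.01 to Bnip3-203. The longest protein-coding transcript, Bnip3-201, had 0 counts in all 4 libraries.

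Bnip3l, the related receptor that clears mitochondria from maturing red cells, stood at 14.3 and 7.55 CPM in the Mmp3-negative and at 23.1 and 18.6 CPM in the Mmp3-positive libraries. The groups did not overlap, with a log2 fold change of 0.93 and a standard error of 0.81 (edgeR adjusted p = 0.943). This direction came from a short non-coding transcript of 354 bases, Bnip3l-204, which held 0 and 56.5 counts in the Mmp3-negative and 166 and 294 counts in the Mmp3-positive libraries. The protein-coding transcripts of Bnip3l held 265 and 74.3 against 273 and 71.4 counts, which overlapped between the groups, and their log2 fold change was -0.087. By limma on log2(TPM + 0.1), where the short transcript weighs more, the difference of the whole gene was 3.03. Of erythroid markers, a source of Bnip3l RNA, 9 were annotated and their summed level was 14.9 to 21.4 CPM in the Mmp3-negative and 5.47 to 9.42 CPM in the Mmp3-positive libraries. Slc4a1, Gata1 and Klf1 were at 0 in all 4 libraries, and the part of red cells in the Bnip3l values was not tested.

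**Figure D3:**
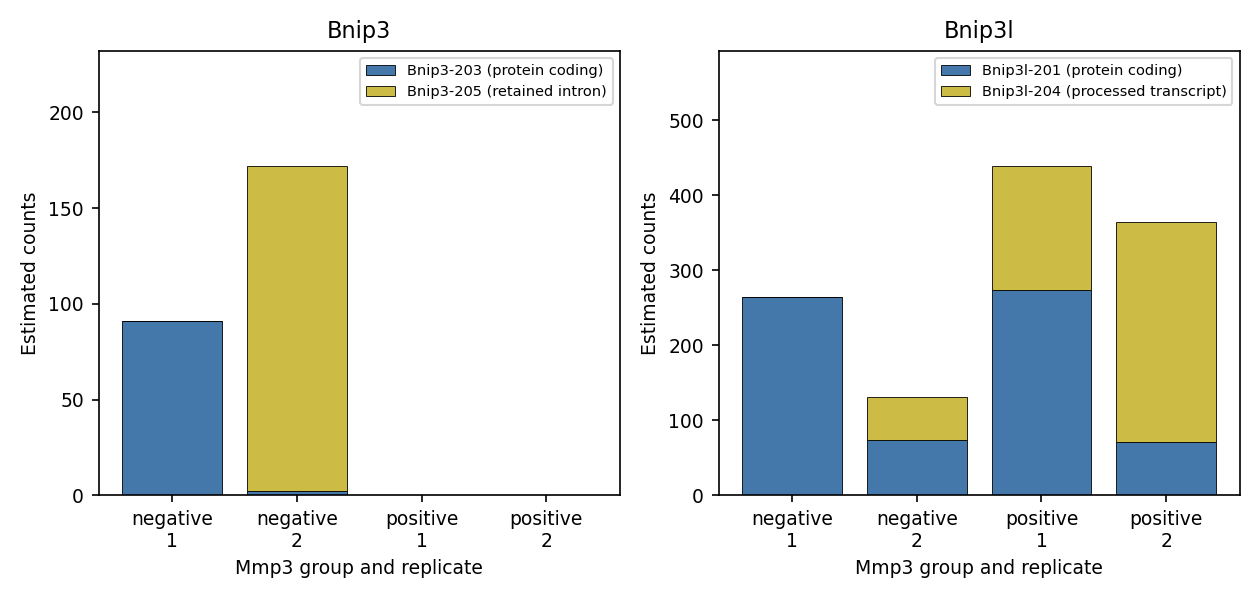
Estimated counts of Bnip3 (left) and Bnip3l (right) in each library, stacked by annotated transcript. Bnip3 rests on Bnip3-203 in Mmp3-negative replicate 1 and on the retained-intron transcript Bnip3-205 in replicate 2, and the Mmp3-positive bars of Bnip3l rise through Bnip3l-204, with 166 and 294 counts.

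Among the fusion genes, Opa1 stood at 58.9 and 71.9 CPM in the Mmp3-negative and at 44.9 and 24.7 CPM in the Mmp3-positive libraries. The groups did not overlap, and Mmp3-positive replicate 2 was the lowest library. The log2 fold change was -0.91 with a standard error of 0.41 (edgeR adjusted p = 0.619). In that library 141 counts were assigned to the protein-coding Opa1-207, the transcript that led with 684 to 807 counts in the other 3, and 196 to the retained-intron transcript Opa1-204. On a TPM scale the direction did not hold, with 0.084 by limma on log2(TPM + 1), where the median over all genes tested was 0.29.

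Mfn2, which also tethers mitochondria to the endoplasmic reticulum, stood at 81.3 and 111 CPM against 77.6 and 75.5 CPM. In CPM the groups came close to each other without overlap, and the log2 fold change was -0.33 with a standard error of 0.27 (edgeR adjusted p = 0.930). In TPM, again without adjustment for scale, the groups overlapped, at 53.5 and 116 against 80.8 and 51.1. Mfn1, the mitofusin with the stronger tethering activity between mitochondria, stood at 29.9 and 21.3 CPM against 23.3 and 40.6 CPM. Its groups overlapped, with a log2 fold change of 0.32 and a standard error of 0.54 (edgeR adjusted p = 0.999). Summed TPM of the 3 fusion genes was 82.3 and 240 in the Mmp3-negative and 133 and 130 in the Mmp3-positive libraries. On this scale the Mmp3-negative pair enclosed the other group. The difference in TPM scale between the Mmp3-negative libraries enters that range, and its part was not tested. Summed CPM of the same genes was 170 and 204 against 146 and 141, without overlap and lower in both Mmp3-positive libraries.

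The fission genes overlapped between the groups. Dnm1l stood at 36.0 and 70.1 CPM in the Mmp3-negative and at 52.2 and 47.9 CPM in the Mmp3-positive libraries. Fis1, an outer membrane protein named for fission, stood at 45.5 and 65.2 against 27.0 and 72.3 CPM. Mff, the main Drp1 adaptor, stood at 13.3 and 8.42 against 7.89 and 17.7 CPM. In each of these genes both Mmp3-positive values lay inside the Mmp3-negative range or to either side of it. The log2 fold changes were -0.084 with a standard error of 0.41 for Dnm1l, -0.16 with 0.53 for Fis1 and 0.24 with 1.02 for Mff (edgeR adjusted p = 0.999 each), and all 3 changed sign depending on which library was left out.

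**Figure D4:**
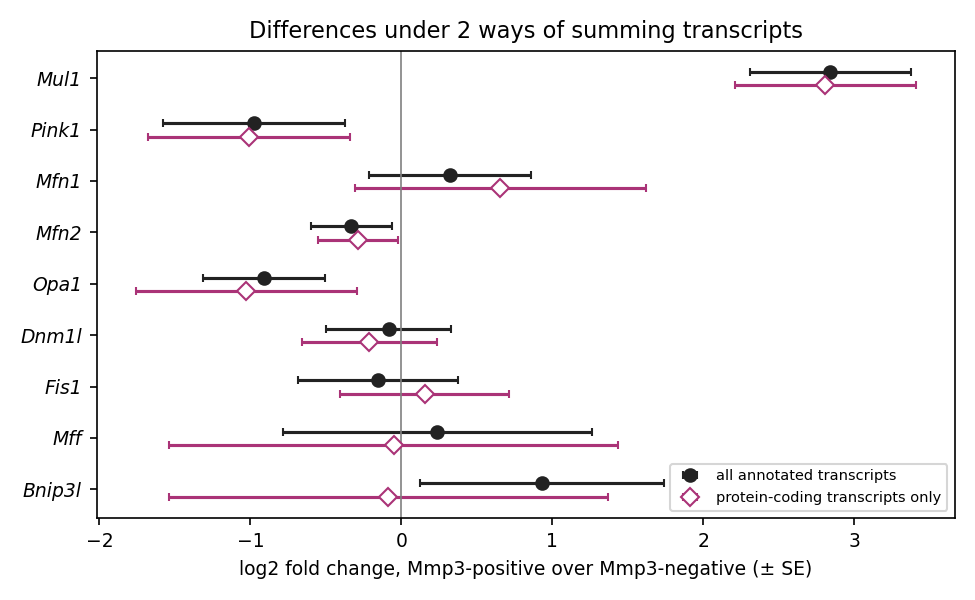
Log2 fold change of 9 members with its standard error, from counts summed over all annotated transcripts (filled circles) and over protein-coding transcripts only (open diamonds). Bnip3 is not drawn because it had 0 counts in both Mmp3-positive libraries. Mul1 stays near 2.8 under both sums, whereas Bnip3l moves from 0.93 to -0.087.

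Counting protein-coding transcripts only, an alternative chosen after the transcript values were seen, left Mul1 at a log2 fold change of 2.81. It removed Bnip3 from the genes tested, since Bnip3-203 then stood at 6.58 and 0.15 CPM against 0 and 0. Pink1, Mfn2 and Opa1 stayed without overlap on the lower side, where 16.4% of the 12308 genes tested under that sum lay, and Mul1 on the higher side, where 22.7% lay. Of the 10 members, 2 had the same leading transcript in every library, Mul1 and Fis1. The other 8 had 2 or 3 different leading transcripts, with 3 for Mfn1, Mfn2 and Mff. For Mfn2, the leading transcript was Mfn2-203 with 1041 counts in Mmp3-negative replicate 1, Mfn2-201 with 1049 and 734 counts in Mmp3-negative replicate 2 and Mmp3-positive replicate 1, and Mfn2-204 with 1231 counts in Mmp3-positive replicate 2.

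Ordered by mean TPM over the 4 libraries, Fis1 was the most abundant member at 105, followed by Mfn2 at 75.4, Mfn1 at 50.2, Bnip3l at 46.5, Dnm1l at 41.8 and Mff at 36.9. Opa1 at 20.7, Pink1 at 14.1, Bnip3 at 13.5 and Mul1 at 11.2 closed the order. Ranges over the libraries overlapped between every pair of neighbours, so no step of this order exceeded the spread. The place of Bnip3l came from the Mmp3-positive libraries, with 64.4 and 93.0 TPM against 3.50 and 24.9 TPM, and in each Mmp3-negative library Mul1 alone stood below it. By median TPM, Bnip3l stood above Mfn1 and Mul1 above Bnip3, and in Mmp3-positive replicate 1 Mfn2 at 80.8 TPM stood above Fis1 at 57.3 TPM. Mul1 TPM was 1.33 and 2.54 in the Mmp3-negative and 23.9 and 16.9 in the Mmp3-positive libraries. Neither pair overlapped the other on this scale, as in CPM.

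Between replicates, the members' median absolute log2 difference was 0.496 for the Mmp3-negative pair and 0.428 for the Mmp3-positive pair. Over all genes tested these medians were 0.760 and 0.479. Mul1 differed by 0.11 and 0.39 and Fis1 by 0.51 and 1.40.

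Promoter sequence is shown for Mul1 and Bnip3, the members with the widest differences in each direction. RefSeq entries on GRCm38.p6 were found for 9 members, with 14 start sites in all, and none is given for Bnip3l. The 250 bases before the start were searched on both strands for ACGTG, the core bound by hypoxia-inducible factors, which is marked in capitals together with its overlapping reverse complement.
Mul1 promoter, chr4:138434422-138434671, plus strand: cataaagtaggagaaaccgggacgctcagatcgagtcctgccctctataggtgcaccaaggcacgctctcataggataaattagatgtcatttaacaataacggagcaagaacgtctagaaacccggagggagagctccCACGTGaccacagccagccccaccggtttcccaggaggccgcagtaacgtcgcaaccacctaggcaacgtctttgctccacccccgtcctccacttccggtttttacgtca
Bnip3 promoter, chr7:138909507-138909756, minus strand: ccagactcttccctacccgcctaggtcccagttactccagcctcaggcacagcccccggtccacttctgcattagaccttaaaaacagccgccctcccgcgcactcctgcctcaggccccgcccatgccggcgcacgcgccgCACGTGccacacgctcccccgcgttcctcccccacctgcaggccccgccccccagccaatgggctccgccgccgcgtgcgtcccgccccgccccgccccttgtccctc

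In both genes the match is the palindrome CACGTG, the E-box, which contains ACGTG on each strand. ACGTG was found in 3 of the 14 member windows (Mul1, Mfn2 and Bnip3) and in 16.6% of 32851 windows of all genes, and CACGTG in 2 and in 6.02%. CCGGAAG, bound by ETS factors, was found in 3 windows (Mul1, Mfn1 and Fis1) and in 6.91% of all. The motif of NRF1, a factor of mitochondrial biogenesis, was found in 3 (Pink1, Opa1 and Bnip3) and in 3.74% of all. GTAAACA, bound by FOXO factors, was found in 0 and in 3.17% of all. A match is a description of letters and not a site in use.

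Around the members, 13 lists of mitochondrial and autophagy genes held 151 distinct tested genes, and none passed the threshold (edgeR, 0 called, 8 at an unadjusted p under 0.05, beside 8.87% of all genes tested). All 10 members are themselves on these lists. Fission machinery and adaptors had 12 tested members, 6 above and 6 below 0, with a median log2 fold change of 0.083. Fusion machinery with its proteases and cristae organisers had 11 above and 5 below 0, with a median of 0.23. Inf2, a formin that acts before division, stood at 357 and 489 CPM against 504 and 522 CPM. Phb2, an inner membrane prohibitin, stood at 108 and 114 against 170 and 141 CPM.

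Genes at 0 in a whole group were found here too, and their share among all genes tested was not counted. On the fission list, Mtfr1 was at 0 in both Mmp3-negative libraries, as was Mtfp1. Oma1, the stress-activated protease that cleaves Opa1, had no counts in either Mmp3-negative library and stood at 14.1 and 4.53 CPM in the Mmp3-positive ones, at least 55.7-fold higher against 3 counts per library (edgeR adjusted p = 0.480). The bound was 27.1 without Mmp3-positive replicate 1 and 84.3 without replicate 2. Mtfp1, an inner membrane protein that promotes fission, was at 0 in both Mmp3-negative libraries and at 1.79 and 1.73 CPM in the Mmp3-positive ones, at least 10.5-fold higher (edgeR adjusted p = 0.480). As for Bnip3, these bounds cover counting error only and not the spread between replicates. None of the 13 list medians changed when genes at 0 in a whole group were set at their bounds.

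Mitophagy receptors had a median of -0.021 over 7 tested members, 3 above and 4 below 0, and Fkbp8, a receptor that binds LC3, stood at 237 and 226 against 239 and 271 CPM. The Pink1 pathway with autophagy adaptors and deubiquitinases had a median of 0.13 over 13, with 7 above and 6 below 0. In it the adaptor Sqstm1 (p62) stood at 736 and 631 against 649 and 658 CPM, and the kinase Tbk1 at 44.0 and 32.2 against 59.5 and 65.2 CPM. Protein-coding transcripts of Tbk1 held under 1 count in each Mmp3-negative library and 883 and 253 counts in the Mmp3-positive ones. Mitochondrial and related ubiquitin and SUMO ligases had a median of 0.080 over 10, Mul1 included, with 6 above and 4 below 0. Their log2 fold changes ran from -0.91 to 5.85, so Mul1 at 2.84 was not the highest of them. Huwe1, a large cytosolic ligase, stood at 561 and 532 against 534 and 578 CPM.

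Autophagy core genes had a median of -0.14 over 18, with 6 above and 12 below 0. Atg5, needed for lipidation of LC3, stood at 26.9 and 45.4 CPM in the Mmp3-negative and at 9.05 and 6.52 CPM in the Mmp3-positive libraries. Its groups did not overlap, and the log2 fold change was -2.21 with a standard error of 0.66 (edgeR adjusted p = 0.480). Becn1, a subunit of the lipid kinase that starts autophagosomes, stood at 93.1 and 189 against 96.8 and 135 CPM.

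Among lists of mitochondrial content and supply, medians were 0.023 for transport over 7 tested genes (4 above and 3 below 0), 0.012 for biogenesis over 11 (6 and 5), -0.062 for import and outer membrane over 14 (6 and 8) and 0.23 for mitochondrially encoded proteins over 13 (12 and 1). Hspa9, the matrix chaperone mortalin, stood at 402 and 353 against 545 and 485 CPM. Esrra, a nuclear receptor of mitochondrial genes, stood at 43.3 and 68.0 against 80.5 and 80.2 CPM, and Pprc1, a coactivator, at 281 and 340 against 321 and 404 CPM. Trak1, a motor adaptor, stood at 222 and 248 against 215 and 283 CPM, and Rhot1 (Miro1), its anchor on mitochondria, at 74.3 and 45.7 against 40.9 and 45.0 CPM. Of the mitochondrially encoded genes, mt-Co3 stood at 1148 and 1340 against 1428 and 1272 CPM, and mt-Nd4l, whose reading frame overlaps that of mt-Nd4, at 27.9 and 5.71 against 59.3 and 44.8 CPM.

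Targets of hypoxia-inducible factors, the class to which Bnip3 belongs, had a median of 0.21 over 13 tested genes, with 9 above and 4 below 0. Ldha, lactate dehydrogenase A, stood at 221 and 258 against 381 and 294 CPM. The part of these factors in the Bnip3 values was not tested. FOXO and starvation targets had a median of 0.24 over 9 (6 above and 3 below 0). Txnip, a thioredoxin-binding protein, stood at 125 and 141 against 61.2 and 66.0 CPM, and Cited2, a coactivator-binding protein, at 53.0 and 92.2 against 82.3 and 144 CPM. Txnip did not overlap between the groups, with a log2 fold change of -1.06 and a standard error of 0.23 (edgeR adjusted p = 0.480). Bcl2 family genes had a median of -0.22 over 10 (4 above and 6 below 0), with the pro-apoptotic Bcl2l11 (Bim) at 579 and 465 against 190 and 233 estimated counts and Bax at 196 and 153 against 222 and 203 CPM.

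**Figure D5:**
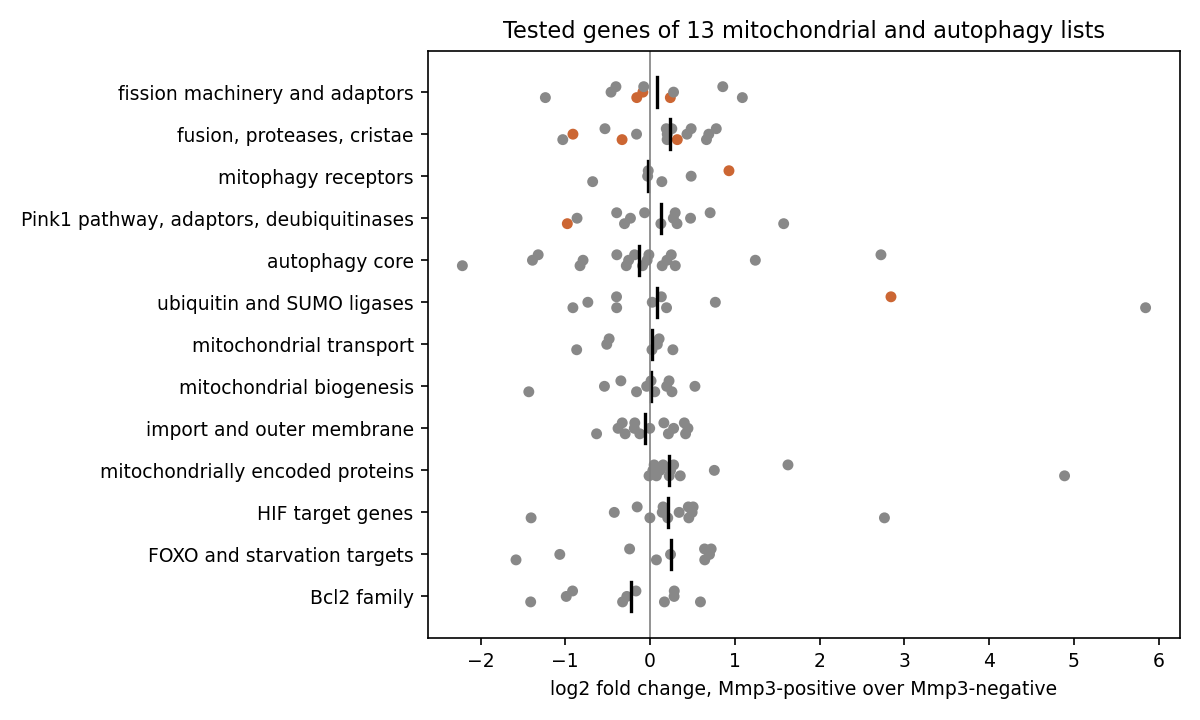
Log2 fold change of the tested genes in 13 lists, with members in orange, other genes in grey and the list median as a black bar. The 4 tested entries at 0 counts in a whole group are not drawn, and the medians lie between -0.22 and 0.24.

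Within 250 kb of Mul1 there were 10 other protein-coding genes. Of these 8 were tested, with log2 fold changes from -0.98 (Pink1) to 0.74 (edgeR, lowest adjusted p = 0.565). The other 2 did not pass the filter on low counts, Fam43b at 0 in all 4 libraries and Vwa5b1 at 9.74 CPM in Mmp3-negative replicate 2 and under 0.1 CPM in the other 3. Camk2n1, a kinase inhibitor and the nearest, 12049 bases away, stood at 20.5 and 6.17 against 15.9 and 2.04 CPM. Ddost, an oligosaccharyltransferase subunit, stood at 142 and 107 against 193 and 173 CPM.

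The 6 genes whose profile over the 4 libraries was most like that of Mul1, by Euclidean distance between centred log2(CPM + 0.5) values among 13215 genes, were Klhl12 (0.230), Vmn1r76 (0.271), Rab11a (0.282), Chn2 (0.369), Stard3nl (0.378) and 9130208D14Rik (0.385). Klhl12 had 39.2 and 45 against 323 and 499 estimated counts and Rab11a stood at 4.75 and 5.07 against 24.5 and 36.2 CPM. Chn2 and 9130208D14Rik had 0 counts in the Mmp3-negative pair.

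Markers of other cell types moved with the groups, and their part in the members' values was not tested. Of mural markers 9 of 10 tested were below 0, with summed levels of 763 to 828 CPM in the Mmp3-negative and 106 to 112 CPM in the Mmp3-positive libraries. Endothelial markers were below 0 in 7 of 8 (300 to 433 against 223 to 229 CPM, with Cldn5 at 0 in both Mmp3-positive and Emcn at 0 in both Mmp3-negative libraries), and macrophage and leukocyte markers in 10 of 10 (175 to 269 against 28.0 to 33.3 CPM, with Adgre1 and Laptm5 at 0 in both). Stromal fibroblast markers were above 0 in 9 of 10 (20597 to 29646 against 28235 to 35886 CPM), and mature adipocyte markers summed to 98.6 to 120 against 48.7 to 56.4 CPM, with Cidec, Lep and Slc36a2 at 0 in all 4 libraries. Adipoq, the adipocyte hormone adiponectin, was at 0 in both Mmp3-negative libraries and at 2.63 and 0 CPM in the Mmp3-positive ones. Schwann cell markers summed to 41.9 to 55.6 against 15.9 to 29.8 CPM, mesothelial ones to 9.66 to 26.0 against 3.87 to 9.53 CPM and skeletal muscle ones to 72.0 to 112 against 8.37 to 14.1 CPM. In such mixed samples fewer cells of a type and less RNA per cell cannot be told apart.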

How the data were processed

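Per the submitters' processing notes, the authors quantified reads with kallisto 0.45.0 on GRCm38; the transcript set, strand setting and trimming are not given in the sources used here. The deposited tables hold, per the file headers, for each of 115270 transcripts its effective length in bases, its estimated count and its TPM. Estimated counts are divided among similar transcripts by the program, so values of single transcripts are less certain than those of genes.

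Transcripts were matched to GENCODE M21 (113580 matched, 1690 did not and were left out), summed per gene and rounded. Genes were filtered with filterByExpr (minimum count 10), scaled by TMM and tested with edgeR 4.0.16 (quasi-likelihood, R 4.3.3), two-sided, without a covariate, Benjamini-Hochberg adjusted, threshold 0.05, with 2 residual degrees of freedom. Standard errors were derived from the log2 fold change and the F statistic. The filter can pass a gene through 1 group alone, as for Bnip3.

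The members and lists were chosen with earlier results of these data known. The rule for names took all members and, from each list, the 2 most abundant genes and the one with the smallest p; the most abundant and the smallest p are printed. Alternatives used DESeq2 1.42.0, limma 3.58.1, a pseudocount of 1 or 0.1 on TPM, a length offset, other sums and filters, the replicate number as a block and leaving out each library. Some withheld items are not reported here.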

Additional observations from a re-analysis of the deposited data

How the results depend on the processing

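Over all genes, edgeR called 1 higher and 2 lower. Without the count filter it called 4 and 23, with a length offset 1 and 0 (1183 at an unadjusted p under 0.05), and with protein-coding transcripts only, chosen after seeing the data, 1 and 0 (1132). Limma on log2(TPM + 1) and log2(TPM + 0.1) called 0 and 0 (1064 and 1163), and DESeq2's Wald test 775 and 593. Leaving out 1 library gave 1 to 237 higher and 1 to 116 lower: 234 and 98 without Mmp3-negative replicate 1, 237 and 116 without Mmp3-negative replicate 2, and at most 2 in either direction without an Mmp3-positive one. Such fits take the spread of the lone library from the remaining pair. The cause was not tested. Members called stayed at 0 except for 2 in DESeq2, and 0 to 1 with a library left out, the 1 being Mul1 without either Mmp3-negative replicate, from which nothing is read since Mul1 was chosen from this contrast. The replicate number as a block called 1 higher and 4 lower. The labels do not say what a set shares. Deviations of same-numbered libraries correlated at 0.024, and 2 pairs cannot show whether the numbers pair the samples.

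Directions reversed for the genes below, Opa1 and Bnip3l among them, and the cause was not tested. With the length offset the log2 fold change was -0.28 for Mfn1, 0.087 for Dnm1l, 0.26 for Becn1, -0.15 for Huwe1, -0.0095 for Inf2 and 0.033 for Sqstm1. With protein-coding transcripts only it was 0.16 for Fis1, -0.051 for Mff, -0.087 for Bnip3l, 0.15 for Becn1 and -0.016 for Trak1. Limma with a pseudocount of 1 and 0.1 gave 0.084 and 0.089 for Opa1, 0.37 and 0.38 for Dnm1l, 0.58 and 0.59 for Becn1, 0.30 and 0.30 for Sqstm1, and 0.030 and 0.032 for Rhot1, where the median of all genes moved from 0.019 to 0.29 and 0.37 (0.12 under the block, up to 0.17 with a library left out). Huwe1 was at -0.019 with DESeq2 size factors and in its Wald test. Leaving out 1 library gave -0.14 to 0.67 for Mfn1, -0.49 to 0.48 for Dnm1l, -1.04 to 0.39 for Fis1, -0.46 to 0.71 for Mff, -0.71 to 0.32 for Becn1, -0.037 to 0.082 for Huwe1, -0.17 to 0.046 for Sqstm1, -0.13 to 0.27 for Trak1 and -2.71 to 0.53 for Camk2n1. The order of the members by CPM per kb was that by TPM. The bounds for Bnip3 and Oma1 with a library left out were added after seeing the data. Mul1 stayed between 2.63 and 3.38 over all 13 alternatives. Depth limits Mul1 in the Mmp3-negative libraries, at 117 and 119 estimated counts, and Bnip3, at 0 counts in the Mmp3-positive ones.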
